A study of Mus musculus with 16 samples.

Results

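The probes described here are those whose accession in the scanner files is a RefSeq noncoding transcript (a name that starts with NR_). The array design holds 2477 such probes. After the 9 probes of Miat, Meg3, H19 and Hoxb5os were set aside, a probe was kept if its Cy5 signal was well above background on at least 4 of the 16 arrays. This left 928 noncoding RNA probes among the 34731 probes of the array that passed the same signal filter. They cover 877 accessions and 819 gene symbols, and 48 of them go by accession alone because the RefSeq gene table used here gave no symbol. The probes were thus selected on their Cy5 detection, with genotype left out. Of them 27 probes were detected on exactly 4 arrays (median Cy5 level 6.38 on the log2 scale, range 6.24 to 6.47). Another 45 probes detected on exactly 3 arrays (median 6.35, range 6.14 to 6.46) fell just outside the selection. The kept probes are not all long noncoding RNAs. By symbol and RefSeq gene type, 514 carry a clone or gene-model name, 148 belong to pseudogenes, 80 to other named RNAs, 57 to opposite-strand or antisense transcripts, 36 to noncoding transcripts of protein-coding genes, 15 to small nucleolar RNA host genes, 13 to small nucleolar RNAs, 12 to other small RNAs and 5 to microRNAs or their hosts.

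The study measured whole kidneys of C57BL/6 mouse embryos at embryonic day 17.5 in 4 genotypes with 4 arrays each. The groups are control (wild type), Ezh2-KO (Ezh2 deleted on both alleles in Six2-positive nephron progenitors, Ezh1 wild type), Ezh1-het (the same Ezh2 deletion with 1 germline Ezh1 allele lost) and double knockout (the same Ezh2 deletion with both germline Ezh1 alleles lost). All 3 knockout groups share the Ezh2 deletion, which is limited to the progenitor population by the label, whereas a germline Ezh1 allele is lost in every cell. Cy5 marked each sample and Cy3 marked RNA of control 1 on every array, so the control 1 array compared that RNA with itself. A value below is log2(Cy5/Cy3) on 1 array. A difference is between group means of that ratio, with the standard error (SE) from limma at n = 4 arrays per group. A probe was called higher or lower where its limma p, adjusted by Benjamini-Hochberg over all 34731 probes, was under 0.05.

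Ezh2 and Ezh1 are the alternative catalytic subunits of Polycomb repressive complex 2, which methylates lysine 27 of histone H3 and holds developmental genes silent, mostly at promoters rich in CG dinucleotides. Many genes for developmental transcription factors have a long noncoding RNA that starts next to them, often on the opposite strand, and some of these RNAs have been described as partners or regulators of the complex. Small nucleolar RNAs guide chemical modification of ribosomal and spliceosomal RNA and are mostly processed from the introns of host genes.

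The promoters of 7 of these noncoding genes, with both starts of 1700027A15Rik, are shown because their probes rose in double knockout and because CG content is the sequence feature tied to Polycomb target promoters. They were chosen with the values known and run from CG-rich to CG-poor. Each line holds 250 bases before and 50 bases after the start in RefSeq (build GRCm38.p6), 5′ to 3′ on the strand of the noncoding gene, with every CG dinucleotide in capitals.
Six3os1, chr17:85618347-85618646, strand -: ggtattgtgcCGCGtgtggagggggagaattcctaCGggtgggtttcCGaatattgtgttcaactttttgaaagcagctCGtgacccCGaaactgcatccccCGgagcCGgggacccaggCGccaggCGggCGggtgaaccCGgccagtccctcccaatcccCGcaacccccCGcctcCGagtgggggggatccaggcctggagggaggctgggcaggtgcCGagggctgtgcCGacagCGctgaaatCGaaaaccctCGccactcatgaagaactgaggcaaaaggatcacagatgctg
Fendrr, chr8:121083061-121083360, strand -: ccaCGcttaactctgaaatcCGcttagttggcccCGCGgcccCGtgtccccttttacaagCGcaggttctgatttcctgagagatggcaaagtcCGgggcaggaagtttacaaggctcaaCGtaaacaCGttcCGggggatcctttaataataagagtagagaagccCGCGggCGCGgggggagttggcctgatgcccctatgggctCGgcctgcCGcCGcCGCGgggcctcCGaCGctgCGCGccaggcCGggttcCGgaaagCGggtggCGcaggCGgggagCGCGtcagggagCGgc
Foxl2os, chr9:98955261-98955560, strand -: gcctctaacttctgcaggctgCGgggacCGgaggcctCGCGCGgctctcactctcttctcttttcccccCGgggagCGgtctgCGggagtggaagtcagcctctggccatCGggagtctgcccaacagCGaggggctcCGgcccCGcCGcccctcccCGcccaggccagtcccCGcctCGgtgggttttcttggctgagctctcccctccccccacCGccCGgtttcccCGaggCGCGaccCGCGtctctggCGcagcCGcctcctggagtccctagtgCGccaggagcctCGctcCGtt
Dio3os, chr12:110278019-110278318, strand -: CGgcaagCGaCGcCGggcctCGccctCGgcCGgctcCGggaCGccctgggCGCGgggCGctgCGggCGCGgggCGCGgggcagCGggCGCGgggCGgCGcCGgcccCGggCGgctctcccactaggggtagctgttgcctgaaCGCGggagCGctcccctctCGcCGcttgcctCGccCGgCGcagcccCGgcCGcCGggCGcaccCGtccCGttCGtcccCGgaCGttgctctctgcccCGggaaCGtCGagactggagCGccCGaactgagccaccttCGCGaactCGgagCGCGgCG
Crnde, chr8:92356071-92356370, strand -: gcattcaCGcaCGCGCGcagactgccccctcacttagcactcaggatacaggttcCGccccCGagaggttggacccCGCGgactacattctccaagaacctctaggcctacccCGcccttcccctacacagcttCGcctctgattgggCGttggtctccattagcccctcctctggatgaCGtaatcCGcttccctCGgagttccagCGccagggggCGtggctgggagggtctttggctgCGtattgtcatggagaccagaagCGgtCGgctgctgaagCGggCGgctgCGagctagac
2610035D17Rik, chr11:113201789-113202088, strand -: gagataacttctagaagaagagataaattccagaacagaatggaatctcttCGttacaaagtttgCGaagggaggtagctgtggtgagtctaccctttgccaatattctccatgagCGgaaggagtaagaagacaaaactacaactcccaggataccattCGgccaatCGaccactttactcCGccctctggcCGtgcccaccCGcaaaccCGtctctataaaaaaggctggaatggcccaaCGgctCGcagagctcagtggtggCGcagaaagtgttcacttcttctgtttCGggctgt
1700027A15Rik, chr1:73015786-73016085, strand +: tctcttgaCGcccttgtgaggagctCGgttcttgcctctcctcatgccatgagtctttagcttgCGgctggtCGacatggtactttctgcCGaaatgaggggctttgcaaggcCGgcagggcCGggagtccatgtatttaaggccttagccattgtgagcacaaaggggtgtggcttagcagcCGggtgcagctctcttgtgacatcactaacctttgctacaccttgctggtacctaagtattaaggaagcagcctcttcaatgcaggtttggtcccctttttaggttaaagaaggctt
1700027A15Rik, chr1:73024336-73024635, strand +: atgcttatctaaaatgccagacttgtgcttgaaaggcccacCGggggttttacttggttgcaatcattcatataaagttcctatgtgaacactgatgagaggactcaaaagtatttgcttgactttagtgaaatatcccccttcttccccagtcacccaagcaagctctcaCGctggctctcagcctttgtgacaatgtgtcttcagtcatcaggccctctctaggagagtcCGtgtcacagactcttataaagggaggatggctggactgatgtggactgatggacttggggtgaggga
The motif counted was CG, which reads the same on both strands and cannot overlap itself. It occurs at least once in 94.6% of the 32851 promoters in the RefSeq table, whose median is 7 per 300 bases. The table held promoters for 531 of the 819 symbols, with a median of 12 over 584 promoters. Dio3os holds 53, and 0.451% of the table's promoters have at least as many. Fendrr holds 31 (10.6% of promoters have at least as many), Foxl2os 28 (14.2%), Crnde 22 (23.1%), Six3os1 20 (26.5%) and 2610035D17Rik 13 (37.9%), while those of 1700027A15Rik hold 8 (48.6%) and 3 (76.7%). Promoters were found for 13 of the 22 genes called higher in double knockout, with a median of 19 over 14 promoters and a range of 3 to 53. The genes called lower in double knockout had 2 promoters in the table, and these held 42 (C030037D09Rik) and 53 (0610009L18Rik). Six3os1, Fendrr and Foxl2os among the higher genes and C030037D09Rik among the lower passed the signal filter through the groups where they are high. These counts for double knockout are therefore a description with no test. The median for genes called higher was 13 in Ezh2-KO (7 promoters) and 10.5 in Ezh1-het (14 promoters). That for genes called lower was 11 (2 overlapping promoters of 1 gene, Gm45351) and 8 (10 promoters).

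Ezh1 and 1 of 5 Ezh2 probes followed the genotype labels. Ezh1 differed from control by -1.05 in Ezh1-het and by -4.47 in double knockout. The Ezh2 probe differed by -3.41, -3.53 and -3.19 in the 3 knockout groups, in the order above. The other Ezh2 probes are not given here, so these values describe 1 probe and not Ezh2 RNA as a whole. All 15 kidney marker genes were above background on at least 4 arrays, and their summed level (log2) was 15.52 to 15.83 in double knockout and 15.84 to 16.28 in control, without overlap. Of 5 adrenal markers 2 were above background on at least 4 arrays (Star and Cyp17a1, each on all 16), while Hsd3b1, Cyp11b1 and Cyp11a1 were on 0 arrays. Of 5 gonad markers Sox9, which developing kidney also expresses, was above background on all 16 arrays, while Ddx4, Stra8 and Amh were on 0 arrays. Between 53.1% and 63.4% of all probes were well above background per array, and between 75.0% (control 2) and 98.0% (Ezh2-KO 4) of the noncoding RNA probes. Summed levels of 5 erythroid markers were 12.9 to 15.8 in double knockout and 15.5 to 16.4 in control. Those of 5 neutrophil markers were 9.42 to 12.5 in Ezh2-KO and 8.53 to 9.14 in control, and those of 5 liver markers, with Apoa1 on 0 arrays, were 11.7 to 12.4 in Ezh1-het and 9.44 to 11.6 in control. Those of 5 neuron markers were 12.81 to 13.27 in Ezh1-het and 12.93 to 13.35 in double knockout, both below the 13.44 to 14.25 of control without overlap, and 12.6 to 13.61 in Ezh2-KO. Their part in the results below was not tested. In whole kidneys, fewer cells of a type and less RNA per cell cannot be told apart. The design text speaks of biological replicates, and each p-value reflects only the spread among the samples at hand.

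In double knockout against control, 23 of the 928 noncoding RNA probes were higher, or 2.48%, beside 2.42% of all probes tested. Another 7 were lower, or 0.754%, beside 0.674% of all probes. In Ezh1-het 25 were higher (2.69%, beside 4.00% of all probes) and 18 were lower (1.94%, beside 2.35%). In Ezh2-KO 18 were higher (1.94%, beside 1.67%) and 2 were lower (0.216%, beside 0.956%). Between double knockout and Ezh2-KO, 8 were higher in double knockout (0.862%, beside 0.475%) and 1 was lower (0.108%, beside 0.199%). The median difference over the 928 probes lay between -0.02 and 0.01 in these comparisons, and that over all probes between -0.01 and 0.01. In double knockout the shares were near the background of the array. The differences between these shares and the background were not tested. The first 3 comparisons share their control arrays. Of the 844 probes that were above background in every group, 18 were higher (2.13%) and 6 lower (0.711%) in double knockout. In Ezh1-het they numbered 23 and 18 (2.73% and 2.13%), and in Ezh2-KO 17 and 2 (2.01% and 0.237%). Among all probes above background in every group, 2.24% were higher and 0.66% lower in double knockout. Those shares were 3.89% and 2.43% in Ezh1-het, and 1.68% and 0.993% in Ezh2-KO. Between double knockout and Ezh2-KO 3 of these 844 were higher, or 0.355%, beside 0.37% of the 32732 probes of the array above background in every group, and the other 5 of the 8 were above background in some groups alone.

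The balance of rises and falls depended on the scaling. With median centring in place of loess the median of all probes stood at 0.22, 0.24 and 0.25 for Ezh2-KO, Ezh1-het and double knockout. The calls then split into 169 higher and 21 lower for Ezh2-KO, 181 and 43 for Ezh1-het, and 166 and 19 for double knockout. The shares higher were 18.2%, 19.5% and 17.9% of the noncoding RNA probes, beside 27.2%, 34.5% and 27.5% of all probes, and the shares lower were 2.26%, 4.63% and 2.05%, beside 1.91%, 3.6% and 1.46%. Of the named calls, median centring ended 1 of 11 in Ezh2-KO, 8 of 22 in Ezh1-het and 3 of 21 in double knockout. Leaving out controls 2 and 3 together ended 5, 17 and 6 of them, and Agilent's processed ratio ended 2, 8 and 3. Single arrays also moved the counts. The 20 calls in Ezh2-KO became 9 without control 2, 9 without control 4, 13 without Ezh2-KO 1 and 11 without Ezh2-KO 2. The 43 calls in Ezh1-het became 19 without control 2, 25 without control 4, 14 without Ezh1-het 2, 25 without Ezh1-het 3 and 9 without Ezh1-het 4. Over all probes, calls higher and calls lower both became fewer in each of these fits too. Without both control 2 and control 3 the counts were 6 for Ezh2-KO, 6 for Ezh1-het and 25 for double knockout. The shares higher were then 0.647%, 0.647% and 1.94%, beside 0.314%, 0.705% and 1.29% of all probes. Those lower were 0%, 0% and 0.754%, beside 0.101%, 0.297% and 0.55%.

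**Figure D1:**
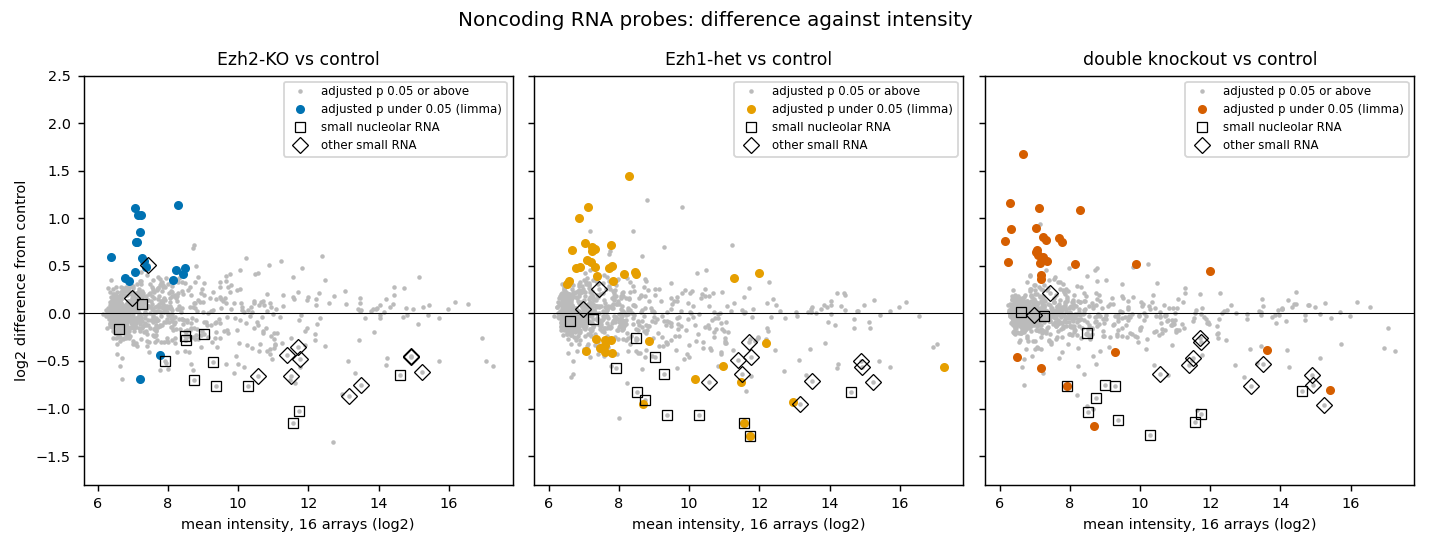
Each point is 1 of the 928 noncoding RNA probes, with its mean intensity over the 16 arrays (log2, horizontal) and its difference from control (log2, vertical), with 1 panel per knockout group. Coloured points passed the limma test (20, 43 and 30 probes). Squares mark the 13 small nucleolar RNA probes and diamonds the 12 other small RNA probes, most of which lie below 0.

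The largest rise in double knockout was that of Gm11538, an uncharacterised noncoding gene whose nearest protein-coding gene is Hoxb13, a posterior homeobox gene. Its values in replicates 1 to 4 were -0.06, -0.21, 0.00 and -0.06 in control, -0.33, -0.04, -0.08 and 0.24 in Ezh2-KO, 0.51, 0.72, 0.60 and 0.52 in Ezh1-het, and 1.91, 1.41, 1.69 and 1.37 in double knockout. Control and Ezh2-KO overlapped, every Ezh1-het array lay above both, and every double-knockout array lay above every Ezh1-het array. The probe was well above background on 0 control, 2 Ezh2-KO, 4 Ezh1-het and 4 double-knockout arrays. The groups where it is high brought it past the signal filter, so its differences are a description with no test. They were 0.67 ± 0.12 in Ezh1-het and 1.68 ± 0.12 in double knockout against control, and 1.65 between double knockout and Ezh2-KO. With no control array above background, its double-knockout level was at least 3.20-fold higher than control. Such a bound sets the bright group against the lowest signal that counted as above background, or is the ratio's own fold where that is smaller. For every fold given here as at least a value, the ratio's own fold was the smaller. It thus restates the difference, with the same SE, and is no separate minimum. Without a dye swap it can include dye bias that differs between arrays, while a bias shared by all arrays cancels between groups. Hoxb13 showed the same order of groups. Its values were -0.03, 0.08, -0.10 and 0.15 in control, 0.00, 0.02, 0.30 and 0.23 in Ezh2-KO, 1.38, 0.81, 0.97 and 0.90 in Ezh1-het, and 2.86, 2.24, 2.35 and 1.79 in double knockout. Hoxb13 was above background on no control or Ezh2-KO array and on all others, so its differences of 0.99 in Ezh1-het (at least 1.99-fold higher) and 2.28 in double knockout (at least 4.87-fold higher) are likewise a description.

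Another 4 probes were above background on no control array, on no Ezh2-KO array and on all 4 double-knockout arrays. The double-knockout arrays alone, or nearly so, brought them past the signal filter, so their differences are a description with no test. Six3os1 runs opposite to Six3, a homeobox gene of forebrain and eye. Its values were 0.07, -0.05, -0.11 and -0.11 in control, -0.06, 0.05, 0.02 and 0.00 in Ezh2-KO, 0.08, -0.06, 0.18 and 0.24 in Ezh1-het, and 1.23, 1.16, 1.27 and 0.78 in double knockout. All 4 double-knockout arrays lay above the other 12, with a difference from control of 1.16 ± 0.10 and a level at least 2.23-fold higher. A second Six3os1 probe, for another RefSeq transcript of the gene, was above background on all 16 arrays and differed by -0.14 ± 0.12 (limma adjusted p = 0.63), so the probes of this gene disagreed. Six3 itself differed by -0.32 (limma adjusted p = 0.267) in double knockout.

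Fendrr is a long noncoding RNA of lateral mesoderm that starts beside Foxf1, a forkhead factor of lung and gut mesenchyme. Its values were -0.08, -0.04, -0.12 and -0.11 in control, 0.03, -0.11, 0.04 and 0.01 in Ezh2-KO, 0.17, 0.15, 0.04 and 0.09 in Ezh1-het, and 0.93, 0.73, 0.67 and 0.85 in double knockout. The double-knockout arrays stood apart from all others, at 0.88 ± 0.07 over control and at least 1.85-fold higher. Foxf1 read 1.72, 1.49, 1.83 and 1.67 in double knockout beside -0.14, -0.12, 0.06 and 0.10 in control. Its probe was above background on no control array and on 2 Ezh2-KO arrays, so its difference of 1.71 ± 0.09 (at least 3.26-fold higher) is a description too. A second Fendrr probe was above background on 0 arrays.

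Sfta3-ps is a pseudogene beside Nkx2-1, a homeobox factor of lung, thyroid and forebrain. Its values were -0.05, 0.02, -0.08 and 0.04 in control, 0.17, 0.09, -0.07 and -0.29 in Ezh2-KO, -0.04, 0.03, -0.10 and -0.07 in Ezh1-het, and 0.87, 0.51, 0.83 and 0.76 in double knockout. The double-knockout arrays did not overlap any other group (0.76 ± 0.10 over control, at least 1.69-fold higher). One probe of Nkx2-1 (A_66_P113793) stood 0.41 above control in double knockout, and a second, A_52_P216427, 0.66. The first was above background on all double-knockout arrays and 2 others, the second on double-knockout arrays alone, so neither was tested here. Foxl2os, opposite to the ovarian forkhead gene Foxl2, had values of -0.10, 0.00, 0.06 and -0.04 in control, -0.02, 0.00, 0.02 and 0.08 in Ezh2-KO, 0.10, 0.05, -0.03 and 0.06 in Ezh1-het, and 0.65, 0.13, 0.55 and 0.74 in double knockout. Its lowest double-knockout array was near the highest Ezh1-het array, and the difference from control was 0.54 ± 0.10 (at least 1.45-fold higher). Foxl2 differed by -0.21 (limma adjusted p = 0.577).

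For these dim probes the size of the difference depended on the background handling. On the scanner software's own processed ratio, which carries no offset, double knockout stood above control by 5.59 (Gm11538), 4.42 (Six3os1), 3.93 (Fendrr), 3.40 (Sfta3-ps) and 3.01 (Foxl2os) on the log2 scale, so the direction held and the size did not. 

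Dio3os, which starts opposite to the imprinted deiodinase gene Dio3 and has the most CG-rich promoter of those shown, was above background on 15 of 16 arrays. Its values were -0.01, -0.24, 0.17 and -0.02 in control, -0.17, -0.07, -0.19 and -0.04 in Ezh2-KO, 0.17, 0.33, 0.09 and 0.57 in Ezh1-het, and 0.73, 0.32, 0.64 and 0.89 in double knockout. Double knockout lay above control and Ezh2-KO without overlap, while Ezh1-het overlapped control. Double knockout exceeded control by 0.67 ± 0.12 (limma adjusted p = 0.00462) and Ezh2-KO by 0.76 (limma adjusted p = 0.00487). Its difference in Ezh1-het was 0.31 (limma adjusted p = 0.128). Dio3, which inactivates thyroid hormone, rose as well in double knockout, by 0.52 (limma adjusted p = 0.0183) over control.

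1700027A15Rik, an uncharacterised gene nearest to Tnp1, had values of 0.00, 0.44, 0.05 and 0.05 in control, -0.16, -0.16, 0.31 and 0.25 in Ezh2-KO, 0.53, 0.61, 0.59 and 0.70 in Ezh1-het, and 1.16, 1.05, 0.86 and 0.65 in double knockout. Double knockout did not overlap control or Ezh2-KO and exceeded them by 0.80 (limma adjusted p = 0.00209) and 0.87 (limma adjusted p = 0.00271). The rise of 0.47 in Ezh1-het (limma adjusted p = 0.0442) was lost without control 1, 3 or 4 or without any 1 Ezh1-het array (0.43 to 0.50, adjusted p 0.0613 to 0.128). Tnp1 differed by -0.11 in double knockout (limma adjusted p = 0.482).

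**Figure D2:**
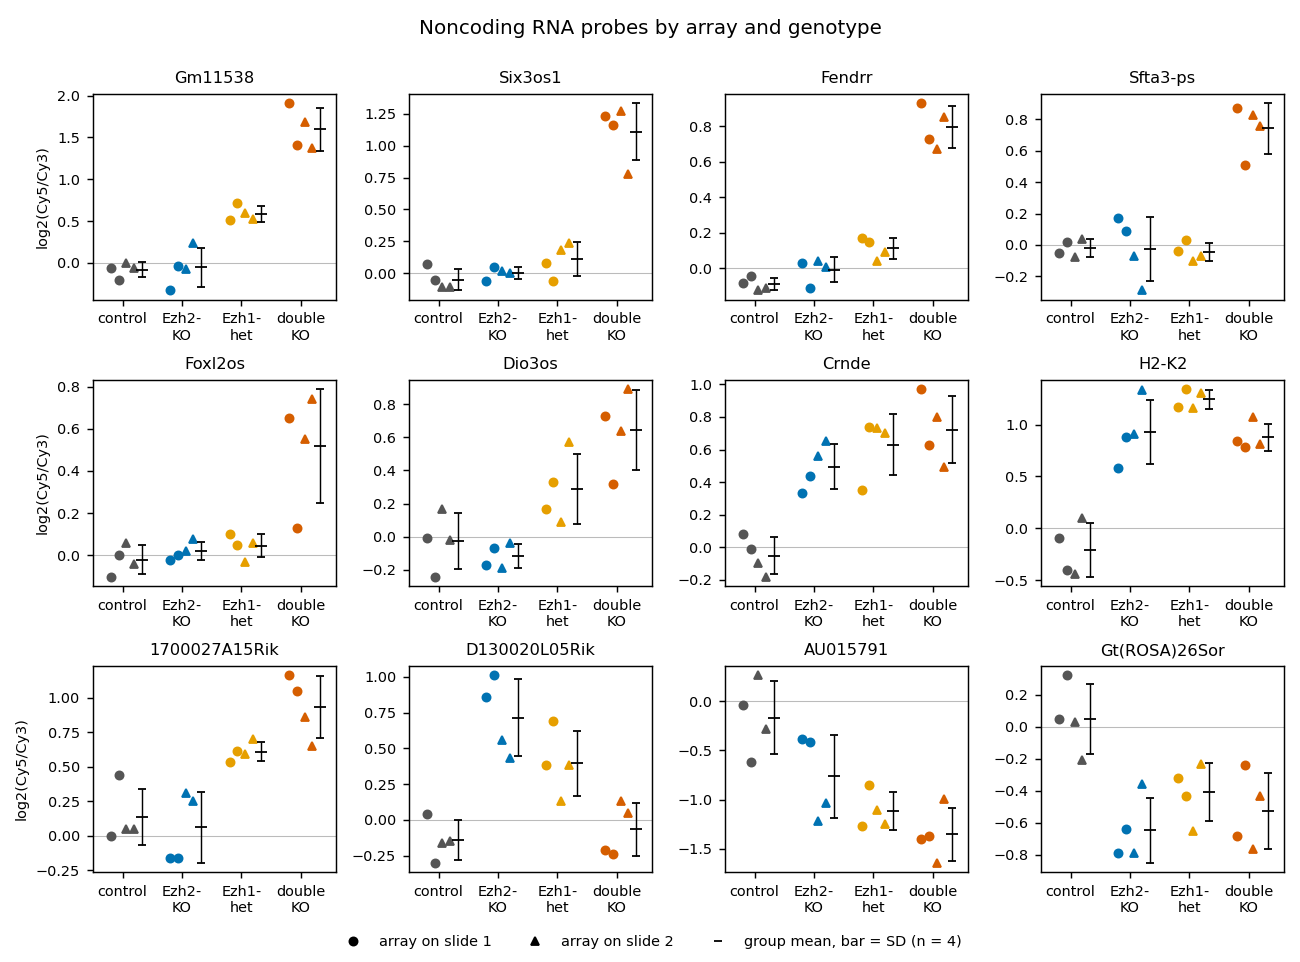
Values of log2(Cy5/Cy3) on each of the 16 arrays for 12 noncoding RNA probes, by genotype, with circles for slide 1, triangles for slide 2 and bars for the mean and SD of 4 arrays (for Crnde the brighter of its probes). Gm11538, Six3os1, Fendrr and Sfta3-ps are high in double knockout, Crnde and H2-K2 are high in all 3 knockout groups, D130020L05Rik is high in Ezh2-KO and Ezh1-het, and AU015791 is low in double knockout.

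A second set of probes was higher in all 3 knockout groups. Crnde, a long noncoding RNA next to the Iroquois gene Irx5 and known for high levels in embryos and tumours, has 2 probes on the array, and both were higher in each group. The dimmer one (A_55_P2723781) read -0.13, -0.30, -0.21 and -0.26 in control, 0.43, 0.47, 0.67 and 0.55 in Ezh2-KO, 0.74, 0.89, 0.75 and 1.19 in Ezh1-het, and 0.98, 0.71, 1.04 and 0.82 in double knockout. All 12 knockout arrays lay above all control arrays. The differences were 0.76, 1.12 and 1.11, and 2.19, 2.84 and 2.79 on the scanner's processed ratio. They are a description, since this probe was above background on 2 control arrays and passed the filter through the knockout groups. The brighter probe (A_66_P105391), above background on all 16 arrays, gave 0.55, 0.68 and 0.78 (limma adjusted p = 0.0186, 0.0029 and 0.000667), of which the Ezh2-KO call was lost without control 4 or without Ezh2-KO 4 (0.50 to 0.51, adjusted p 0.0526 to 0.0615) or without controls 2 and 3 together (adjusted p 0.133). Irx5, nearest to Crnde, was higher by 0.52 in both Ezh1-het (limma adjusted p = 0.0231) and double knockout (limma adjusted p = 0.0261), and its difference in Ezh2-KO was 0.27 (limma adjusted p = 0.222).

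H2-K2, a pseudogene of the class I histocompatibility family, gave the largest rise of these in Ezh2-KO and Ezh1-het. Its values were -0.09, -0.40, -0.44 and 0.10 in control, 0.58, 0.88, 0.91 and 1.33 in Ezh2-KO, 1.17, 1.34, 1.16 and 1.30 in Ezh1-het, and 0.84, 0.78, 1.07 and 0.81 in double knockout. No knockout array overlapped control. The differences were 1.14, 1.45 and 1.08 ± 0.14 (limma adjusted p = 0.00064, 2.67e-05 and 0.000215). H2-K1, the protein-coding paralogue that presents peptides on the cell surface, was also higher on its probe A_51_P198434, by 1.73 in Ezh1-het (limma adjusted p = 4.61e-05) and 1.30 in double knockout (limma adjusted p = 0.000373). Whether the H2-K2 probe also reads H2-K1 RNA was not tested, so the pseudogene's value is uncertain.

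Gm3893 and 4933409K07Rik, both typed as pseudogenes, gave like values. Gm3893 read -0.15, 0.30, -0.24 and -0.07 in control, 1.36, 1.42, 0.90 and 0.60 in Ezh2-KO, 0.81, 0.76, 0.48 and 0.77 in Ezh1-het, and 0.90, 0.85, 0.69 and 1.02 in double knockout. Its differences were 1.11, 0.74 and 0.90 (limma adjusted p = 0.00186, 0.0146 and 0.0036), with no overlap with control. The Ezh1-het call was lost without Ezh1-het 4 (0.72, adjusted p 0.052). 4933409K07Rik differed by 0.70 in Ezh1-het and 0.81 in double knockout (limma adjusted p = 0.0337 and 0.0195). The first call was lost without control 1, 3 or 4 or any 1 Ezh1-het array (0.61 to 0.74, adjusted p 0.0539 to 0.0826), the second without control 1 or double knockout 1 or 4 (0.69 to 0.79, adjusted p 0.052 to 0.0699). Whether the probes read separate transcripts was not tested.

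2610035D17Rik, an uncharacterised gene nearest to the zinc transporter gene Slc39a11, read -0.04, -0.13, -0.22 and -0.05 in control, 0.74, 0.86, 0.56 and 0.39 in Ezh2-KO, 0.34, 0.59, 0.49 and 0.39 in Ezh1-het, and 0.44, 0.50, 0.52 and 0.59 in double knockout. All knockout arrays lay above control, with differences of 0.75, 0.56 and 0.62 (limma adjusted p = 0.000674, 0.0029 and 0.000855). The 3 calls held without any 1 array, but that in Ezh1-het was lost without controls 2 and 3 together (0.50, adjusted p 0.0539). Slc39a11 differed by 0.07 in double knockout (limma adjusted p = 0.78). Gm38426, which overlaps the kinase gene Mast1, was called in Ezh1-het (0.72, limma adjusted p = 0.00204) and double knockout (0.75, limma adjusted p = 0.000874). It read 0.92, 0.78, 0.75 and 0.80 in Ezh1-het and 0.94, 0.89, 0.94 and 0.60 in double knockout, against 0.02, 0.28, -0.12 and 0.18 in control.

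D130020L05Rik followed the reverse order. It read 0.04, -0.30, -0.16 and -0.15 in control, 0.86, 1.01, 0.56 and 0.43 in Ezh2-KO, 0.38, 0.69, 0.13 and 0.38 in Ezh1-het, and -0.21, -0.24, 0.13 and 0.05 in double knockout. Double knockout overlapped control and lay below every Ezh2-KO array. It was higher by 0.86 in Ezh2-KO (limma adjusted p = 0.00361) and by 0.54 in Ezh1-het (limma adjusted p = 0.0318), and the difference between double knockout and Ezh2-KO was -0.78 (limma adjusted p = 0.0105). Its difference between double knockout and control was 0.07 (limma adjusted p = 0.853). The Ezh1-het call was lost without any 1 of control 2, 3 and 4 and Ezh1-het 1, 2 and 4 (0.44 to 0.54, adjusted p 0.0551 to 0.108), and the Ezh2-KO call without controls 2 and 3 together (0.77, adjusted p 0.0669).

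Rmst, a long noncoding RNA of neural progenitors, split by slide in Ezh2-KO. It read 1.52 and 1.60 on slide 1 and 0.11 and 0.22 on slide 2, against -0.11, -0.24, -0.20 and -0.16 in control. The difference of 1.04 (limma adjusted p = 0.0384) was 1.73 within slide 1 and 0.35 within slide 2, and the call was lost without Ezh2-KO 1, Ezh2-KO 2 or any 1 control (0.79 to 1.06, adjusted p 0.052 to 0.104). In double knockout Rmst read 0.72, 0.60, 0.87 and 0.86, all above control, with a difference of 0.94 (limma adjusted p = 0.0558). Mirg, a microRNA host of the imprinted Dlk1-Dio3 region, was higher by 0.66 in Ezh1-het (limma adjusted p = 0.0204) and by 0.59 in double knockout (limma adjusted p = 0.0445). The first call was lost without control 2 or Ezh1-het 2 or 4 (0.52 to 0.68, adjusted p 0.0536 to 0.0748), the second without any 1 of control 1, 2 and 4 and double knockout 1, 3 and 4 (0.45 to 0.63, adjusted p 0.0612 to 0.159).

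Some rises were called in 1 group. 9130024F11Rik, an uncharacterised gene, read 0.99, 0.86, 0.76 and 0.90 in Ezh1-het against 0.06, -0.20, -0.68 and 0.31 in control. Its difference of 1.00 (limma adjusted p = 0.0322) was lost without any 1 of 6 arrays: control 2, control 3 and each Ezh1-het array (0.82 to 1.04, adjusted p 0.053 to 0.0862). Gm10069 read 0.58, 0.44, 0.67 and 0.20 in Ezh2-KO against -0.15, 0.15, -0.17 and -0.30 in control . Its difference of 0.59 is a description, since all 4 Ezh2-KO arrays and 2 of the other 12 were above background. A second Gm10069 probe differed by -0.25, so its probes disagreed.

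Against control, fewer of the noncoding RNAs called higher had a nearest protein-coding gene that was also called higher than had one that was not. In double knockout 662 noncoding genes had a nearest coding gene that was measured, and 39 of those neighbours were called higher (5.89%). Of the 18 called noncoding genes with a measured neighbour, 6 had a neighbour that was also called higher. These pairs were Gm11538 with Hoxb13, Fendrr with Foxf1, Sfta3-ps with Nkx2-1, Dio3os with Dio3, Crnde with Irx5, and Gm14204 (0.36, limma adjusted p = 0.0134) with the vesicular transporter gene Slc32a1 (1.56, limma adjusted p = 1.1e-05), which it overlaps. Gm11538, Fendrr, Sfta3-ps, Hoxb13, Foxf1 and Nkx2-1 passed the signal filter through the groups where they are high, so these counts are a description. The other 12 noncoding genes had a neighbour that did not pass, and 33 neighbours rose beside a noncoding gene that did not pass. In Ezh1-het 3 of 18 had such a neighbour, where 6.5% of neighbours were called, and in Ezh2-KO 0 of 12, where 2.27% were. Between double knockout and Ezh2-KO it was 4 of 7 (Gm11538, Fendrr, Sfta3-ps and Dio3os), where 1.66% of neighbours were called, and the first 3 of these passed the filter through the groups where they are high.

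**Figure D3:**
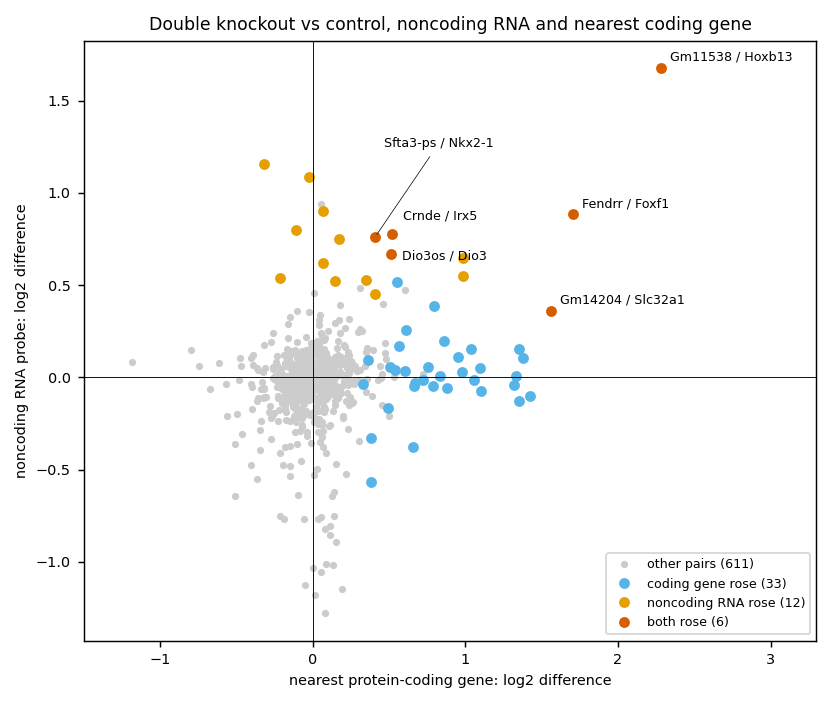
Difference between double knockout and control (log2) of 662 noncoding genes (vertical) against that of the nearest protein-coding gene (horizontal). In 6 pairs both were called higher (red, named), in 12 the noncoding RNA alone (orange) and in 33 the coding gene alone (light blue).

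Most lists of known noncoding RNAs had few or no calls. For the unadjusted counts below, 176, 218 and 127 of all 928 probes had an unadjusted p under 0.05 in limma. These are for Ezh2-KO, Ezh1-het and double knockout against control. Among transcripts beside developmental transcription factor genes, 13 of 26 probes on the array were above background. In double knockout 2 were called higher (Six3os1 and Fendrr, both kept by their double-knockout signal) and 0 lower, and the median difference was 0.11. Wt1os, opposite to the podocyte and progenitor regulator Wt1, differed by -0.13 (limma adjusted p = 0.694), and Lhx1os, opposite to Lhx1, by 0.12 (limma adjusted p = 0.871). The 5 Hox cluster transcripts had 0 calls in limma in the 3 comparisons with control, where 2, 1 and 1 had an unadjusted p under 0.05. Hoxa11os, opposite to a gene that patterns the kidney, differed by 0.23, 0.02 and 0.00, and Hottip by -0.10 in double knockout. Of 11 imprinted cluster probes, that of Mirg was the 1 called, in Ezh1-het and double knockout, and 0 were called by limma in Ezh2-KO, where 6 had an unadjusted p under 0.05. The 4 probes of Kcnq1ot1, which silences its cluster on the paternal chromosome, differed by -0.62 to -0.25 in Ezh2-KO and by -0.52 to -0.09 in double knockout, none called, and 2 of them turned to 0.27 and 0.33 in double knockout with median centring.

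Of the 8 growth and p53 linked probes, the 2 of Crnde were called in each knockout group, and those of Tug1, Pvt1, Dleu2, Terc and Mir22hg were not. In the nuclear architecture list 2 of 4 probes of Norad, which binds Pumilio proteins, were lower in Ezh1-het, by -0.55 and -0.29 (limma adjusted p = 0.0299 and 0.0398), calls that were lost on leaving out Ezh1-het 2 or 4 or control 2 or 4, and for the second probe also without control 1 or Ezh1-het 3 (-0.55 to -0.41 and -0.30 to -0.25, adjusted p 0.0559 to 0.125). The other Norad probes differed by -0.13 and -0.08. With median centring the called ones moved to 0.01 and 0.08, so the sign flips with the scaling. The median of all probes was then 0.24, above both. The 5 microRNA host probes had 0 limma calls, where 1, 2 and 1 had an unadjusted p under 0.05 in the 3 comparisons with control.

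The X chromosome list holds Xist, the RNA that silences 1 X chromosome in female cells, and Ftx, Jpx and Firre. None was called by limma, where 1, 2 and 1 of the 4 had an unadjusted p under 0.05. Xist read 0.30, -1.91, -2.49 and -0.29 in control, -1.98, -2.09, -1.21 and -1.46 in Ezh2-KO, -2.91, -2.89, -0.28 and -2.71 in Ezh1-het, and -2.33, 0.04, -0.47 and -2.49 in double knockout. Its level varied within every group and the groups overlapped. Eif2s3y, a Y-linked gene, read 0.28 on control 1 and -0.06 on double knockout 2, the arrays with the highest Xist values, and 1.18 on control 4, where Xist read -0.29. The labels give no embryo sex.

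Among the called falls, that of AU015791, an uncharacterised gene, was the largest in double knockout. It read -0.04, -0.62, 0.26 and -0.28 in control, -0.39, -0.42, -1.22 and -1.03 in Ezh2-KO, -1.27, -0.85, -1.11 and -1.25 in Ezh1-het, and -1.40, -1.37, -1.64 and -0.99 in double knockout. Double knockout and Ezh1-het lay below control without overlap, and Ezh2-KO overlapped it. The difference was -1.18 in double knockout (limma adjusted p = 0.00301) and -0.95 in Ezh1-het (limma adjusted p = 0.0144, lost without Ezh1-het 4 at -0.91, adjusted p 0.0532, and with median centring at -0.62, adjusted p 0.0742). Both calls were lost with a trended and robust variance in limma and on slide 2 alone. In Ezh2-KO the difference was -0.07 within slide 1 and -1.12 within slide 2. A second, dimmer probe of the gene differed by -0.08 in double knockout.

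Gt(ROSA)26Sor, the noncoding gene at the Rosa26 locus used for knock-in alleles, was lower on 1 of its 3 probes. That probe read 0.05, 0.32, 0.03 and -0.21 in control, -0.79, -0.64, -0.79 and -0.36 in Ezh2-KO, -0.32, -0.43, -0.65 and -0.23 in Ezh1-het, and -0.68, -0.24, -0.76 and -0.43 in double knockout. It differed by -0.69 in Ezh2-KO (limma adjusted p = 0.0155, lost without control 2 at -0.60, adjusted p 0.051) and by -0.57 in double knockout (limma adjusted p = 0.0292, lost without control 1 or 2 or double knockout 1 or 3 at -0.57 to -0.48, adjusted p 0.0654 to 0.122). The other probes differed by 0.45 and -0.25 in Ezh2-KO, with no call, so the gene's probes disagreed. In double knockout other falls were those of 0610009L18Rik (-0.41, limma adjusted p = 0.0463) and Gm6756 (-0.38, limma adjusted p = 0.0343). Without single arrays these calls were lost at adjusted p 0.0732 to 0.117 (0610009L18Rik, control 1, 2 or 4 or double knockout 2, 3 or 4) and 0.0887 to 0.108 (Gm6756, control 1 or 4 or double knockout 1 or 3). With median centring 0610009L18Rik moved to -0.0040 (adjusted p 0.987) and Gm6756 turned to 0.28. C030037D09Rik was above background on no double-knockout array and on 8 of the other 12. Its difference of -0.45 (at least 1.37-fold lower) was -0.80 with median centring and -2.40 on Agilent's processed ratio. It is given with no test, since the groups where it is higher brought it past the filter.

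Gm45351 was the other fall in Ezh2-KO. It read -0.38, -0.46, -0.56 and -0.50 there against 0.13, -0.07, -0.04 and -0.15 in control, with no overlap (-0.44, limma adjusted p = 0.00746). The call held without any 1 array but was lost with median centring (-0.28, adjusted p 0.0576), without controls 2 and 3 together (-0.46, adjusted p 0.0631), in a fit of the 2 groups alone (adjusted p 0.0775) and within each slide (-0.45 and -0.43, adjusted p 0.157 and 0.147). In Ezh1-het there were 18 falls, all of probes above background in every group. Their number rested on single arrays, being 0 without Ezh1-het 4, 3 without Ezh1-het 2 and 8 without Ezh1-het 3. It was 4 without control 2 and 9 without control 4. The shares lower were 0%, 0.323%, 0.862%, 0.431% and 0.97% in these fits, in that order. Beside them stood 0.458%, 0.596%, 1.48%, 0.965% and 1.76% of all probes, where 2.35% were lower with every array. The 7 falls in double knockout became 1 without control 1 or double knockout 3, and 4 without control 4 or double knockout 4. They became 19 without control 3. The shares lower, 0.754% with every array, were 0.108%, 0.108%, 0.431%, 0.431% and 2.05% in these fits, in that order. Those of all probes, 0.674% with every array, were 0.492%, 0.268%, 0.51%, 0.426% and 1.48%. Among those named, 9530091C08Rik read -0.18, -0.33, -0.58 and -0.45 against 0.12, 0.89, 0.12 and 0.10 in control (-0.69, limma adjusted p = 0.0202), a call lost without Ezh1-het 2, 3 or 4 (adjusted p 0.0513 to 0.0656) and with median centring (-0.17, adjusted p 0.291). 1110006O24Rik fell by 0.72 (limma adjusted p = 0.0297), lost on leaving out Ezh1-het 2 or 4 or control 2 or 4 (adjusted p 0.0713 to 0.0969) and with median centring (-0.13, adjusted p 0.493). 7420701I03Rik fell by 0.42 (limma adjusted p = 0.0146), lost without Ezh1-het 4 (adjusted p 0.0592) and with median centring (-0.22, adjusted p 0.0579). Without Ezh1-het 2 its adjusted p stood at the threshold (0.05). NR_003278, which has no symbol here, differed by -0.56 (limma adjusted p = 0.0468), was lost without any 1 of 7 arrays (all but control 1; adjusted p 0.0572 to 0.136) and turned to 0.19 with median centring.

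Most small nucleolar RNA probes had lower means than control in each mutant group, though few passed the test. The 13 small nucleolar RNA probes had median differences of -0.51 (Ezh2-KO), -0.82 (Ezh1-het) and -0.82 (double knockout), with 12, 13 and 12 of 13 below 0, while the medians over all probes were 0.01, 0.01 and 0.00. Of these 0, 2 and 1 were called lower by limma, and 7, 10 and 11 had an unadjusted p under 0.05, beside 176, 218 and 127 of all 928 probes. The calls were Snord17 (-1.29, limma adjusted p = 0.0478) and Snora34 (-1.15, limma adjusted p = 0.0389) in Ezh1-het and Snora47 (-0.77, limma adjusted p = 0.0403) in double knockout. Snora34 read 0.35, 1.58, 0.25 and 0.66 in control, 0.02, -0.16, -0.39 and -1.25 in Ezh2-KO, -0.05, -0.52, -0.19 and -1.0 in Ezh1-het, and -0.02, -0.17, -0.66 and -0.88 in double knockout. Control 2 was its highest array, and its control arrays overlapped no other group. The Snord17 call was lost without control 2 or 4 or any 1 Ezh1-het array (-1.46 to -0.99, adjusted p 0.0511 to 0.158), and that of Snora34 on leaving out control 2 or 4 or any Ezh1-het array but the first (-1.24 to -0.86, adjusted p 0.0547 to 0.133). With median centring Snord17 differed by -0.71 and Snora34 by -0.58. The Snora47 arrays of double knockout overlapped those of control.

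The class median moved with single arrays. On the control arrays it was 0.34, 1.51, 0.03 and 0.66, although control 1 was hybridised against itself, and on the knockout arrays it lay between -0.64 and 0.20. Without control 2 the class differences were -0.30, -0.53 and -0.61, and with median centring -0.23, -0.37 and -0.51. The 12 other small RNA probes, among them Rn7s1, Rn7sk, Rmrp and Rpph1, which serve protein export, transcription control and the processing of ribosomal and transfer RNA, had medians of -0.47, -0.53 and -0.54 and 0 limma calls, with 4, 4 and 2 at an unadjusted p under 0.05. Those medians were -0.22, -0.27 and -0.31 without control 2, and -0.77, -0.84 and -0.86 without control 3. They were 0.08, 0.07 and 0.05 with median centring, so the sign flips with the scaling. The median of all probes was then 0.22, 0.24 and 0.25, above each of these. Small nucleolar RNA host genes, 15 probes of longer transcripts that hold small nucleolar RNAs in their introns, had medians of 0.11, 0.00 and -0.04, with Snhg9 lower in Ezh1-het (-0.31, limma adjusted p = 0.0286). With median centring their medians were 0.67, 0.56 and 0.45, so the sign in double knockout flips with the scaling. On slide 1 alone the host medians were 0.32, 0.11 and -0.03, and on slide 2 alone -0.11, -0.16 and -0.04. Control 2 also had the lowest share of noncoding RNA probes above background, and its part in the class difference beyond the values without it was not tested.

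**Figure D4:**
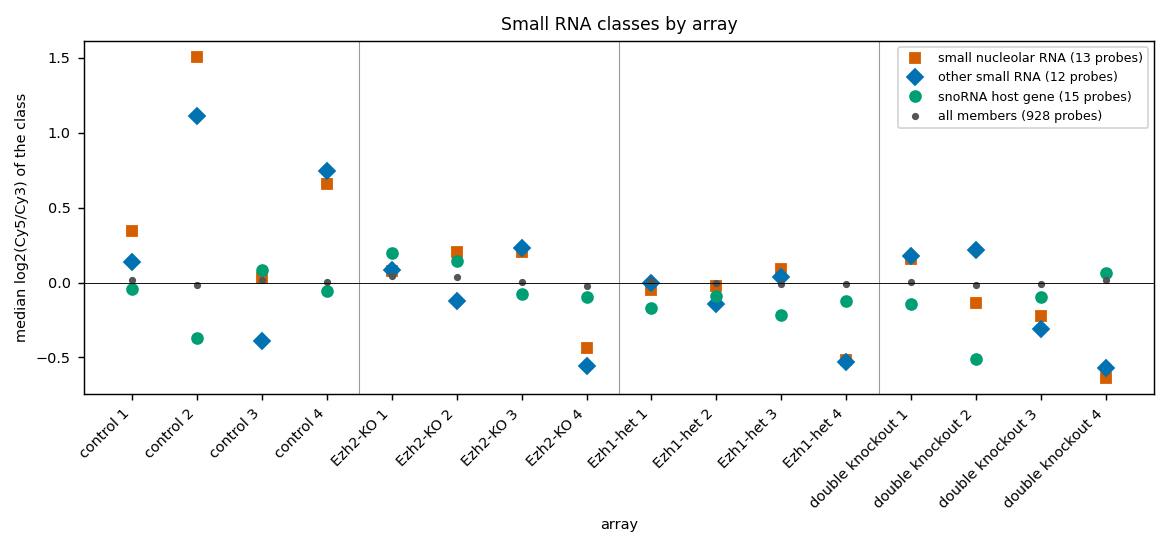
Median log2(Cy5/Cy3) on each of the 16 arrays of the 13 small nucleolar RNA probes, the 12 other small RNA probes, the 15 small nucleolar RNA host probes and all 928 noncoding RNA probes. Control 2 is the highest array for both small RNA classes (1.51 and 1.11), and replicate 4 is the lowest array of each knockout group for both classes.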

How the data were processed

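Total RNA of 16 kidney samples was hybridised to Agilent 2-colour arrays, each sample in Cy5 and control 1 in Cy3. The deposited files, per the file headers, hold raw median spot and background intensities, processed intensities and a log10 ratio from Agilent Feature Extraction 10.7.3.1, with no replicates pooled. The authors' value table holds the same log10 ratio, rounded (largest difference 0.004998). Median intensities were corrected by normexp (offset 50) and loess within arrays, giving control spots weight 0 and dropping flagged outlier spots (limma 3.58.1, R 4.3.3). Of 2477 NR_ probes 2407 matched a symbol in the RefSeq table (GRCm38.p6, versions ignored). Per the file headers the grid uses mm9, and no probe coordinates are given. All 4 comparisons came from 1 fit over 16 arrays and 34731 probes, two-sided. Named probes are the 8 largest non-overlapping rises and falls called per comparison (1 per symbol), the list members, and probes above background in all arrays of a knockout group and no control, or the reverse. Gm14204, Snora47, Snhg9 and the nearest coding genes were named after their values were seen. A probe that this rule names is not reported here. The members and lists were chosen with earlier results of these data known. The number of arrays limits the precision. The script was tested on simulated data. Alternatives are given in the closing section.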

Additional observations from a re-analysis of the deposited data

Results flagged for a closer look

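A value was singled out where the highest or lowest array of a group of 4 stood apart from the other 3 by more than Dixon's 95% critical value. This held in 18 of 356 groups tested (5.06%), and chance flags about 1 in 20 groups. On control 2, 9530091C08Rik read 0.89 (others 0.10 to 0.12), 1700027A15Rik 0.44 (0.00 to 0.05) and Ftx 0.11 (0.00 to 0.01). On control 3, Pantr1 read -2.87 (others -0.32 to -0.07), Lhx1os -1.43 (-0.07 to 0.04) and the brighter Six3os1 probe 0.42 (-0.02 to 0.01). In Ezh2-KO, replicate 1 stood apart for Kcnq1ot1 (probe A_55_P2717618, 0.13 against -0.14 to -0.10) and Norad (probe A_55_P2943890, 0.26 against -0.03 to 0.00), and replicate 4 for Mirt1 (-0.21 against 0.14 to 0.21) and Tug1 (-0.22 against 0.00 to 0.03).

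In Ezh1-het, replicate 1 stood apart for Crnde (probe A_66_P105391, 0.35 against 0.70 to 0.74), Hottip (0.21 against 0.05 to 0.07) and Pantr1 (0.68 against 0.11 to 0.19). Replicate 2 did so for F930015N05Rik (0.07 against 0.28 to 0.30), and replicate 3 for Gm3893 (0.48 against 0.76 to 0.81) and Xist (-0.28 against -2.91 to -2.71). In double knockout these were Gm38426 in replicate 4 (0.60 against 0.89 to 0.94) and Pantr2 in replicate 3 (-0.03 against -0.28 to -0.24).

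The difference from control itself differed between double knockout and Ezh2-KO for 9 probes by limma. Double knockout was higher by 0.87 for 1700027A15Rik, 0.76 for Dio3os and 0.40 for Norad (probe A_55_P2089310), and the difference was -0.78 for D130020L05Rik. Gm11538 (1.65), Six3os1 (1.10), Fendrr (0.80), Sfta3-ps (0.77) and Foxl2os (0.50) were also higher, but the groups where they are high brought them past the signal filter. The Norad and Foxl2os calls were lost without any 1 of 5 and 6 arrays.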

How the results depend on the processing

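Noncoding RNA probes called against control (Ezh2-KO, then Ezh1-het, then double knockout), and in double knockout against Ezh2-KO, numbered 20, 43, 30 and 9. Median centring gave 190, 224 and 185 in the comparisons with control. Array weights gave 48, 79, 60 and 57. The shares higher were then 4.1%, 4.4%, 3.7% and 2.3%, beside 3.5%, 6.5%, 4.3% and 3.2% of all probes. Those lower were 1.1%, 4.1%, 2.8% and 3.9%, beside 2.2%, 4.5%, 2.3% and 2.9%. Fits of the compared groups alone gave 4 and 28 in Ezh2-KO and Ezh1-het. Slide 1 alone gave 8, 2 and 10 in the comparisons with control. Slide 2 alone gave 0 (limma, with 155 at an unadjusted p under 0.05), 1, 10 and 2. Calls over all probes also became fewer in fits of the compared groups alone and on each slide alone. The 614 probes above background on all 16 arrays gave 19 in double knockout and 3 against Ezh2-KO. In double knockout 2.28% of them were higher and 0.814% lower, beside 2.02% and 0.617% of all probes in that fit. Against Ezh2-KO the shares were 0.326% and 0.163%, beside 0.241% and 0.12%. Without controls 2 and 3 the counts in Ezh2-KO and Ezh1-het were 6 and 6. Without any 1 array they ran from 9 to 26, 9 to 48, 22 to 44 and 7 to 11. Agilent's processed ratio gave 14, 35, 31 and 9. The shares higher were then 1.29%, 1.83%, 2.48% and 0.754%, beside 1.16%, 2.81%, 2.5% and 0.409% of all probes. Those lower were 0.22%, 1.94%, 0.862% and 0.22%, beside 0.855%, 2.34%, 0.777% and 0.141%.

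Median centring turned the sign of Bvht (0.43 in Ezh2-KO, 0.33 in Ezh1-het), NR_003278 (0.19 in Ezh1-het, 0.42 in double knockout), Airn (0.32 in Ezh1-het), Gm6756 (0.28 in double knockout), Kcnq1ot1 (0.27 and 0.33 in double knockout) and Norad (0.013, 0.083 and 0.57 in Ezh1-het, 0.42 and 0.64 in double knockout). With that scaling the median of all probes stood at 0.22 (Ezh2-KO), 0.24 (Ezh1-het) and 0.25 (double knockout). The cause of these sign changes was not tested.

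The replicate numbers did not pair the samples: deviations of same-numbered arrays correlated between -0.41 and 0.50, over 0.1 in 7 of 24 pairs, and 5 of 16 arrays correlated best with their own number. With the replicate block the counts were 22, 45, 33 and 10. The shares higher were then 1.94%, 2.59%, 2.59% and 0.862%, beside 1.83%, 3.81%, 2.38% and 0.42% of all probes. Those lower were 0.431%, 2.26%, 0.97% and 0.22%, beside 1.18%, 2.44%, 0.743% and 0.207%. Signal over background limits the dim probes, whose sizes rest on the offset.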
